A study of Saccharomyces cerevisiae with 12 samples.

Results

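The transcriptional response of *ups1*Δ yeast to tunicamycin was read from 6 of the 12 RNA-seq libraries of the series. The members are the 3 *ups1*Δ cultures labelled as treated with tunicamycin at 1 μg/ml for 3 h and the 3 *ups1*Δ cultures labelled as untreated, chosen by genotype and treatment and by no measured value. All 6 cultures share the S288c background and the deletion of *UPS1*, and had reached log phase in a synthetic glucose medium with all standard supplements. The other 6 libraries, 3 treated in the same way and 3 untreated, came from wild-type cells and are used here only where the response of the genotypes is compared. The series describes the cultures of each condition as biological triplicates. Tunicamycin was dissolved in DMSO, and the labels name no DMSO for the untreated cultures, so the drug, its solvent and the additional hours of culture cannot be told apart. Whether the *ups1*Δ cultures came from independent clones is not given in the sources used here.

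Ups1 is a mitochondrial lipid transfer protein that carries phosphatidic acid across the intermembrane space for the synthesis of cardiolipin. Tunicamycin blocks the first committed step of N-glycosylation, the enzyme encoded by *ALG7*, so that secretory proteins enter the endoplasmic reticulum (ER) without their glycans and fold poorly. The ER kinase and nuclease Ire1 senses this state and starts the splicing of *HAC1* mRNA. The transcription factor Hac1 then raises genes for ER chaperones, oxidoreductases, glycosylation, degradation and vesicle transport, which together form the unfolded protein response (UPR). Growing yeast cells also devote a large part of transcription to ribosomal proteins and to the assembly factors that build ribosomes in the nucleolus, and stressed cells usually lower both while raising a general stress program driven by Msn2 and Msn4.

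Total estimated counts ranged from 4908357 to 7101983 in the treated and from 4729074 to 5003994 in the untreated *ups1*Δ libraries. Values are given as CPM, read counts scaled to a common library size after each library total was multiplied by its TMM normalization factor, and a count of 3, taken as the limit of detection, was worth 0.402 to 0.659 CPM. *UPS1* (chromosome XII, 540009 to 540536 in the R64 assembly) had 0, 0 and 2 counts in the treated and 0, 0 and 0 counts in the untreated *ups1*Δ libraries, against 185 to 427 counts in the wild-type libraries, in keeping with the labels. One library stood apart. Untreated replicate 3 differed from untreated replicates 1 and 2 with a chi-square per degree of freedom of 16.7 and 20.1 over genes, whereas those replicates differed from each other by 2.09 and the treated libraries by 3.70 to 7.27.

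Candidate regulatory motifs were looked up in the 300 bases upstream of the start codon, on both strands, in the R64 genome of RefSeq. The motifs were the UPR element core CAGCGTG bound by Hac1, the PAC motif GATGAG common to ribosome assembly genes, the stress response element AGGGG bound by Msn2 and Msn4, and the pleiotropic drug resistance element TCCGCGGA. None of these motifs contains another. They are shown for genes whose levels are described below, because these gene groups moved in different directions. A match describes the sequence and is not evidence of binding. The UPR element core stood 160 bases before the start codon of *KAR2* (gene strand, plus strand of the chromosome, chrX:381157-381183) and 99 bases before that of *LHS1* (opposite strand, chrXI:296321-296347). Sequences read 5′ to 3′ along the strand of the gene, with 10 flanking bases on each side, and capitals mark the motif.
KAR2: aggaactggaCAGCGTGtcgaaaaagt
LHS1: taatatcgaaCACGCTGttataaaagt

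The PAC motif stood 100 bases before the start codon of *UTP10* (chrX:217394-217419), 144 before that of *PWP2* (chrIII:223357-223382) and 139 before that of *DBP7* (chrXI:487496-487521), each on the strand of the gene, which is the minus strand of the chromosome. Before *NOG1* (chrXVI:370825-370850, a gene of the plus strand) it stood on the opposite strand, where it reads CTCATC along the gene. Capitals mark the motif as above.
UTP10: ttcagttagcGATGAGctagatattt
PWP2: aaaattttgcGATGAGctgaaagatg
DBP7: aaaaatttgcGATGAGcttaggaaaa
NOG1: ttttccgcagCTCATCgcaaagaaaa

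Stress response elements stood before *SDP1* (chrIX:150363-150387), *SOL4* (chrVII:985836-985860), *TSL1* (chrXIII:70383-70407) and *HSP12* (chrVI:107014-107038), all genes of the plus strand. The match before *TSL1* is on the gene strand and the others are on the opposite strand. The first match of each gene is given. *SDP1*, *SOL4* and *TSL1* are shown because their transcripts were lower with tunicamycin, and *HSP12* because its transcript was higher although it carries the same letters.
SDP1: cttggcaactCCCCTtctggaacag
SOL4: aaaaaatcccCCCCTaagcagcgaa
TSL1: ggagataggaAGGGGcgggggtccg
HSP12: agatctacagCCCCTggaaaatcgt

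Of the 5559 protein-coding genes tested that have such a window, 71 (1.28%) held the UPR element core, 1067 (19.2%) the PAC motif, 1250 (22.5%) a stress response element and 10 (0.180%) the drug resistance element. The PAC motif stood before 280 of 858 genes that rose (32.6%) and 79 of 665 genes that fell (11.9%). It stood before 39 of 45 genes of the small subunit (SSU) processome and 39 of 41 genes for 60S assembly factors. A stress response element stood before 143 of the genes that rose (16.7%) and 216 of the genes that fell (32.5%). Of the 29 general stress genes, called or not, 20 had one. The UPR element core stood before 15 of the genes that rose (1.75%) and 11 of those that fell (1.65%), and before 2 of 7 genes of the ER Hsp70 cycle. These are counts of letters in windows and were not tested.

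Between treated and untreated *ups1*Δ cells 1546 of 5700 genes tested differed (27.1%, edgeR quasi-likelihood test, Benjamini-Hochberg adjusted p under 0.05). Of these, 866 rose (15.2%) and 680 fell (11.9%). Counts of called genes within a gene list are to be read against these shares. The changes were mostly small: 193 of the called genes changed by at least 1 on the log2 scale, 142 upwards and 51 downwards, and the median log2 fold change over all genes tested was 0.01. Scaling by library size alone moved that median to 0.11 and the share of lower genes among the called ones to 22.5%, against 44.0% with TMM factors, so small changes are relative to the scaling. In 2645 genes (46.4%) the 3 treated and the 3 untreated libraries did not overlap. Without untreated replicate 3, 1997 genes were called. Without treated replicate 1, treated replicate 2 or untreated replicate 1 the calls numbered 897, 728 and 1015. The p-values set the difference between the groups against the spread between these cultures, and do not measure that spread.

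**Figure D1:**
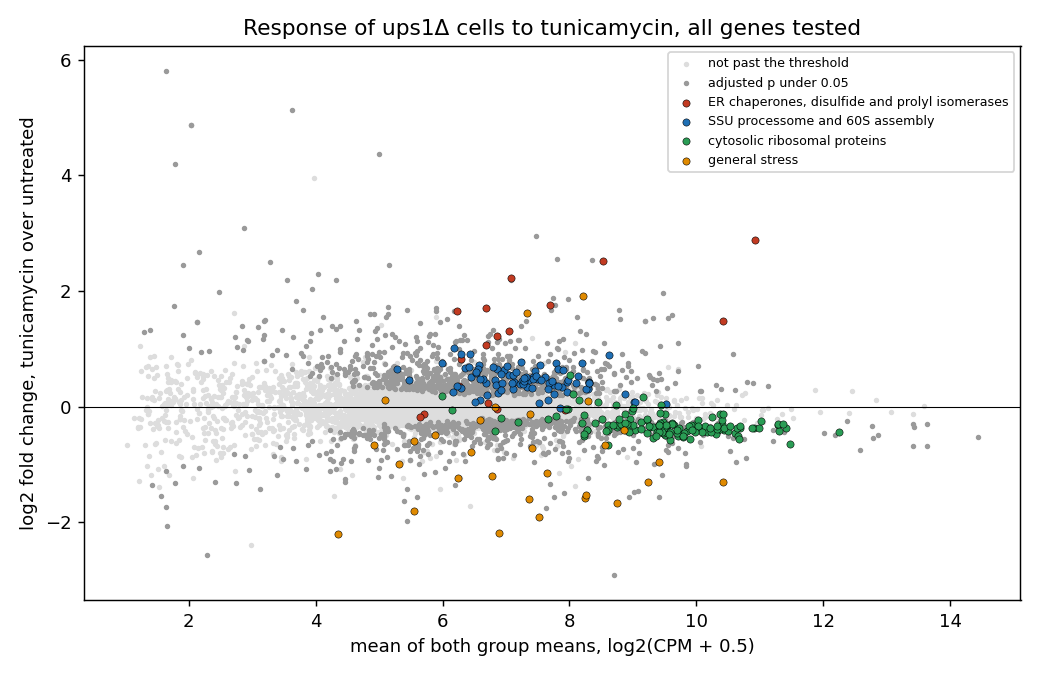
Each point is one of 5700 genes tested in *ups1*Δ cells; the x axis is the mean level over both groups as log2(CPM + 0.5), and the y axis is the log2 fold change, tunicamycin over untreated. Coloured points are gene lists: ER folding genes reach 2.87 (KAR2), the SSU processome and 60S assembly factors lie mostly above 0, cytosolic ribosomal proteins mostly below 0, and general stress genes spread from -2.21 to 1.91.

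Genes of the UPR and the ER were among those that rose most. *ULI1*, a gene of unknown function named for its induction in the UPR, had 49.5, 68 and 63.1 CPM in treated libraries, against 2.64, 2.91 and 3.17 CPM in untreated libraries. Every treated library was far above every untreated one, and the log2 fold change was 4.36 ± 0.19 (SE) with an adjusted p of 3.7e-06. *HAC1* (chromosome VI, 75179 to 76147), the transcription factor gene of the pathway, had 637, 658 and 699 CPM in treated libraries, against 209, 203 and 216 CPM in untreated libraries, a log2 fold change of 1.67 ± 0.07 (SE) with an adjusted p of 3.7e-06. The counts are per gene and do not separate spliced from unspliced *HAC1* mRNA. *IRE1*, its upstream kinase, was at 95.5, 97.9 and 87 CPM in treated libraries, against 77.4, 77.5 and 89 CPM in untreated libraries, where the groups overlapped and the test was not passed (log2 fold change 0.20, adjusted p 0.11). Among the 5 genes listed for UPR signalling, *ULI1* and *HAC1* rose and the other 3 were not called.

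The ER Hsp70 chaperone cycle showed the highest median change of the gene lists. In this cycle Kar2 (BiP) binds unfolded chains, J proteins deliver them and nucleotide exchange factors release them. *KAR2* (chromosome X, 381327 to 383375) had 3037, 3598 and 3578 CPM in treated libraries, against 464, 479 and 449.9 CPM in untreated libraries. All 3 treated libraries lay far above all 3 untreated ones, which lay close together, and the fold change was 7.33 (log2 2.87 ± 0.09 (SE), adjusted p 7.2e-07). *LHS1*, an Hsp70-like exchange factor, had 290.1, 328 and 342 CPM in treated libraries, against 91, 101 and 91.3 CPM in untreated libraries (log2 1.76 ± 0.09 (SE), adjusted p 4.7e-06). *SIL1*, the other exchange factor, had 206, 231 and 228 CPM in treated libraries, against 42.2, 51.5 and 49.2 CPM in untreated libraries (log2 2.22 ± 0.09 (SE), adjusted p 3.7e-06). Exchange factors and J proteins thus moved with the Hsp70 itself: the J protein genes *JEM1*, *SCJ1* and *ERJ5* rose by 1.71, 1.31 and 0.82 on the log2 scale. *CNE1*, which encodes calnexin, was the member that was not called, with a log2 fold change of -0.13. In all, 6 of 7 listed genes rose and none fell, with a median of 1.71 against 0.01 over all genes tested.

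Disulfide formation genes rose in the same samples. *ERO1*, the oxidase that supplies oxidizing equivalents in the ER, had 541, 636 and 710.4 CPM in treated libraries, against 111, 122 and 97.2 CPM in untreated libraries (log2 2.52 ± 0.12 (SE), adjusted p 5e-06). *PDI1*, the essential protein disulfide isomerase, had 1861, 2059 and 2145 CPM in treated libraries, against 701, 730.3 and 737 CPM in untreated libraries (log2 1.48 ± 0.08 (SE), adjusted p 5.7e-06). Treated and untreated groups stayed apart for both genes, and untreated replicate 3 was not set apart from the other untreated libraries. The PDI homologs *MPD1* and *EUG1* rose by 1.65 and 1.23, and the ER prolyl isomerase gene *FPR2* by 1.07. *MPD2* rose by 0.35, less than its homologs. Of 10 listed genes 6 rose and none fell (median 0.71), and the 4 others, which include *CPR5* at -0.07, were not called.

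**Figure D2:**
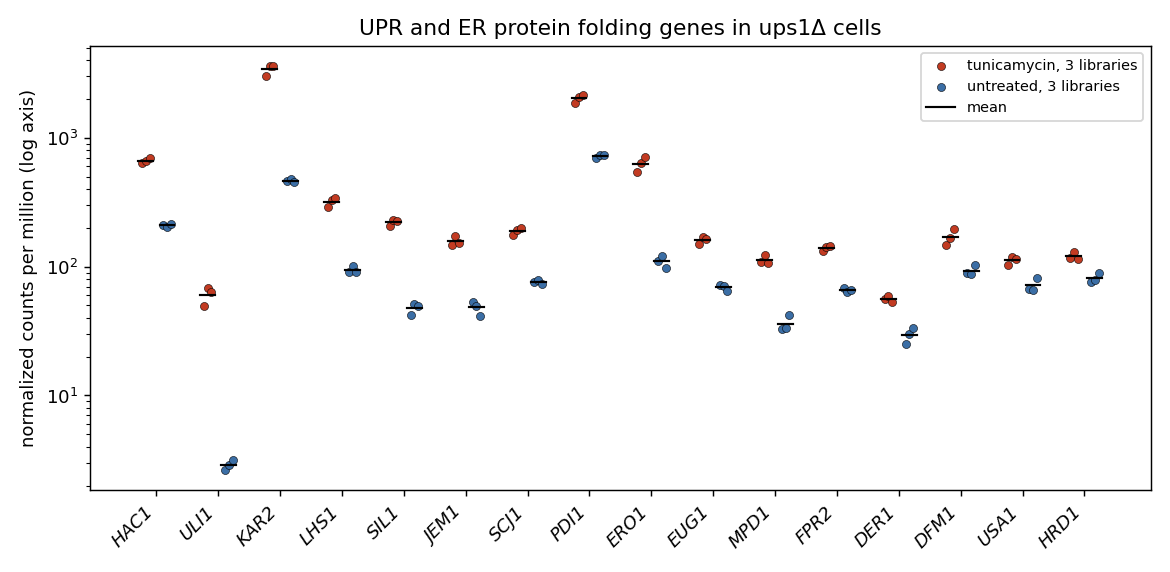
Normalized read counts in CPM (log axis) of 16 UPR, ER folding and ER-associated degradation genes in each *ups1*Δ library; red points are the 3 treated and blue points the 3 untreated libraries, and black bars are group means. The groups are separate for every gene shown, with the widest gap for ULI1 and gaps under 1 log2 unit for the degradation genes at the right.

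ER-associated degradation (ERAD) genes rose less. This pathway draws misfolded proteins out of the ER for ubiquitination and destruction by the proteasome. The 5 called genes all belong to the Hrd1 ligase complex or its Derlin partners. *DER1*, a Derlin, had 56, 59.3 and 53.1 CPM in treated libraries, against 25.1, 29.9 and 33.2 CPM in untreated libraries (log2 0.94 ± 0.12 (SE), adjusted p 0.00072). *USA1*, the scaffold that joins Der1 to the ligase, had 103, 119 and 115 CPM in treated libraries, against 67.3, 65.6 and 81.6 CPM in untreated libraries (log2 0.65 ± 0.10 (SE), adjusted p 0.0023). The Derlin gene *DFM1* rose by 0.87, *HRD1*, the ubiquitin ligase itself, by 0.57, and its partner *HRD3* by 0.44. The 11 other listed genes, which cover ubiquitin-conjugating enzymes, the Cdc48 complex and the Doa10 ligase, were not called, and the median of the 16 was 0.09. Untreated replicate 3 stood at 0.11 in the median of this list relative to the untreated mean, against 0.11 in treated replicate 3, and without it 7 genes rose. None of the 34 proteasome genes listed rose and 4 fell (11.8%, against 11.9% of all genes), with changes between -0.34 and 0.16. Without one library 0 to 6 fell and at most 1 rose.

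Genes for entry into the ER and exit from it rose moderately. Of 13 genes for translocation and signal peptidase, 6 rose and 1 fell. *SEC61*, the channel subunit, had 455, 491 and 509.6 CPM in treated libraries, against 298, 314 and 284 CPM in untreated libraries (log2 0.70 ± 0.08 (SE), adjusted p 0.00036). *SEC62*, of the post-translational translocon, had 295, 318 and 315 CPM in treated libraries, against 181, 181 and 153 CPM in untreated libraries (log2 0.85 ± 0.08 (SE), adjusted p 0.00019). Both genes were higher in each treated library than in any untreated one. *SSH1*, the channel subunit of the alternative translocon, went the other way at -0.25 (adjusted p 0.025), a call that was lost under 6 alternatives, scaling by library size alone among them. Of 18 COPII coat and cargo receptor genes 12 rose and none fell (median 0.37). *ERV29*, a receptor for soluble cargo, had 290.3, 287 and 324 CPM in treated libraries, against 155, 147 and 149.6 CPM in untreated libraries (log2 0.99 ± 0.07 (SE), adjusted p 3.5e-05). *ERP2*, a p24 family protein, rose by 0.74, *SFB3*, an alternative Sec24 coat subunit, by 0.69, and *SEC16*, which organizes exit sites, by 0.58.

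The N-glycosylation genes themselves had small median changes. Of 18 genes for synthesis of the lipid-linked oligosaccharide 7 rose and 1 fell, with a median of 0.07. These shares of 38.9% and 5.56% compare with 15.2% and 11.9% of all genes. Without one library 5 or 6 rose and 0 or 1 fell. *ALG7*, the target of tunicamycin, lies outside the rule for named genes and is given for its role: it had 74.6, 92.9 and 88.2 CPM in treated libraries, against 61.3, 61.1 and 63.4 CPM in untreated libraries (log2 0.46 ± 0.10 (SE), adjusted p 0.0084). The treated libraries were all above the untreated ones, by a smaller margin than for the chaperones, and the call was lost without treated replicate 2. *SEC59*, the dolichol kinase, had 57, 60.4 and 66.9 CPM in treated libraries, against 35.2, 31.2 and 32.5 CPM in untreated libraries (log2 0.90 ± 0.10 (SE), adjusted p 0.00039). *RER2*, a cis-prenyltransferase of dolichol synthesis, and *DPM1*, the dolichol phosphate mannose synthase, rose by 0.64 and 0.64. The mannosyltransferase gene *ALG12* and the glucosyltransferase gene *ALG6* rose by 0.57 and 0.39. *ALG13*, which acts in the next step after Alg7, fell by 0.46, a call lost under 4 alternatives including scaling by library size alone. Of 13 genes for oligosaccharyltransferase and glycan trimming *OST2* (0.70) and *SWP1* (0.30), both subunits of the transferase, rose (1 or 2 genes without one library), the *SWP1* call being lost under 4 alternatives. This share of 15.4% is near the 15.2% of all genes that rose. *ROT2* (-0.22), the catalytic subunit of glucosidase II, passed at the limit of the threshold (adjusted p 0.048) and was not called under 9 alternatives.

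O-mannosylation and GPI anchor genes had single members with clear changes. *PMT1*, *PMT2* and *PMT3*, of the 7 protein O-mannosyltransferase genes listed, rose and the other 4 were not called. *PMT2* had 717, 743 and 827 CPM in treated libraries, against 414, 409 and 383 CPM in untreated libraries (log2 0.92 ± 0.08 (SE), adjusted p 9e-05), and *PMT1* and *PMT3* rose by 0.90 and 1.02. Pmt1 and Pmt2 form an enzyme complex, and both genes of the pair rose. *MCD4*, which adds ethanolamine phosphate to the GPI precursor, had 332, 404 and 405 CPM in treated libraries, against 66.8, 72.7 and 55.6 CPM in untreated libraries (log2 2.55 ± 0.12 (SE), adjusted p 4.6e-06). *GWT1*, an inositol acyltransferase of the same pathway, rose by 1.14, and *PBN1*, a mannosyltransferase subunit, fell by 0.39 with a call lost under 3 alternatives. Over the 22 GPI anchor genes 4 rose and 1 fell (2 to 5 and 0 to 2 without one library), with a median of -0.01. These shares of 18.2% and 4.55% compare with 15.2% and 11.9% of all genes, and most of the pathway was not called.

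Cell wall genes rose in part. *YPS3*, a GPI-anchored aspartic protease, had 250.1, 361 and 334 CPM in treated libraries, against 36.9, 38.8 and 46.5 CPM in untreated libraries (log2 2.95 ± 0.16 (SE), adjusted p 1.5e-05). *GSC2*, the stress-induced glucan synthase subunit, had 1001, 1223 and 1184 CPM in treated libraries, against 289, 269 and 314 CPM in untreated libraries (log2 1.97 ± 0.10 (SE), adjusted p 5.2e-06). *CRH1*, a chitin transglycosylase, had 973, 1208 and 1154 CPM in treated libraries, against 372, 377 and 404 CPM in untreated libraries (log2 1.53 ± 0.10 (SE), adjusted p 1.5e-05). For these genes the untreated libraries lay close together and below all treated ones. *GFA1*, the first enzyme of chitin precursor synthesis, rose by 0.74 and *CIS3*, a Pir family wall protein, by 0.70. The wall proteins *CWP1*, *PIR1* and *CCW12* fell by 0.76, 0.44 and 0.25, and each of these calls was lost under at least 2 alternatives. In all 13 of 28 listed genes rose and 3 fell (median 0.35), and over the single omissions 7 (without treated replicate 2) to 17 (without untreated replicate 3) rose and 0 to 3 fell. *NCW2*, a wall protein gene that lies on chromosome XII next to the deleted *UPS1* locus, had 437, 638 and 596 CPM in treated libraries, against 78.3, 77.5 and 134 CPM in untreated libraries (log2 2.53 ± 0.27 (SE), adjusted p 0.0019). The part of the neighbouring deletion in the level of *NCW2* was not tested, and both groups carry it.

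Ribosome assembly genes rose with tunicamycin while ribosomal protein genes fell. The SSU processome folds and cleaves the precursor of 18S rRNA in the nucleolus. Of its 45 listed genes 32 rose and none fell, with a median of 0.48, and all 45 had a positive log2 fold change. *UTP10*, a large scaffold protein of the complex, had 390.4, 376 and 339 CPM in treated libraries, against 240.5, 235 and 178 CPM in untreated libraries (log2 0.76 ± 0.12 (SE), adjusted p 0.0023). *PWP2*, of the UTPB subcomplex, had 247, 243 and 201 CPM in treated libraries, against 150.4, 152 and 119 CPM in untreated libraries (log2 0.71 ± 0.12 (SE), adjusted p 0.0029). For both, the lowest value belonged to untreated replicate 3, but the other untreated libraries were also below every treated one. *RCL1*, the endonuclease-like subunit, rose by 0.91 and *NOC4* by 0.68. These genes carry the PAC motif in most of their upstream windows, as shown for *UTP10* and *PWP2* above.

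Genes for 60S assembly followed the same pattern. Of 41 listed genes 26 rose and none fell (median 0.41). *DBP7*, an RNA helicase of early 60S particles, had 97, 104 and 88.8 CPM in treated libraries, against 50.6, 57.5 and 35.1 CPM in untreated libraries (log2 1.02 ± 0.16 (SE), adjusted p 0.0031). *NOG1*, a GTPase of pre-60S particles, had 538, 540.3 and 466 CPM in treated libraries, against 304, 317 and 208 CPM in untreated libraries (log2 0.90 ± 0.15 (SE), adjusted p 0.0048). Untreated replicate 3 was again the lowest library, with 35.1 and 208 CPM. The helicase gene *DRS1* rose by 0.64 and *YTM1*, of the same late nucleolar steps, by 0.51. Of 11 RNA polymerase I genes 6 rose and none fell (median 0.42), among them *RPA190*, the largest subunit, with 549, 578 and 545 CPM in treated libraries, against 418, 419 and 338 CPM in untreated libraries (log2 0.51 ± 0.09 (SE), adjusted p 0.005), *RPA14* at 0.57 and *RRN11*, of the core factor, at 0.82. The calls of *RPA14* and *RRN11* were lost without treated replicate 2.

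The size of this increase depended on untreated replicate 3. Relative to the mean of the untreated libraries, the median SSU processome gene stood at 0.54, 0.55 and 0.44 in the treated libraries, against 0.13, 0.16 and -0.29 in the untreated ones. Without that library 33 SSU processome, 32 60S assembly and 6 RNA polymerase I genes rose and none fell, with medians of 0.34, 0.30 and 0.27. The direction was therefore the same without it, and the medians were smaller. Without treated replicate 2 the same 3 lists had 15, 8 and 1 genes that rose, and without treated replicate 1 they had 15, 8 and 2, again with none lower.

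Of 137 cytosolic ribosomal protein genes 96 fell and 1 rose, with a median of -0.36. The scale of the change was small and even: the lowest log2 fold change was -0.67. *RPS31*, a fusion of ubiquitin and a small subunit protein, had 2248, 2066 and 2361 CPM in treated libraries, against 3699, 3493 and 3283 CPM in untreated libraries (log2 -0.65 ± 0.08 (SE), adjusted p 0.00064). *RPL30*, of the large subunit, had 777, 745 and 777 CPM in treated libraries, against 1224, 1155 and 1024 CPM in untreated libraries (log2 -0.57 ± 0.08 (SE), adjusted p 0.0017). Each treated library lay below each untreated library in both genes. *RPS28A* fell by 0.54 and *RPL41A*, the smallest ribosomal protein gene product, by 0.67. *RPS9A* was the gene that rose (0.55), with a call lost when all 12 libraries were fitted together, and its paralog *RPS9B* fell (log2 -0.47, adjusted p 0.0085). Reads from such near-identical pairs may have been split between them, so the opposite changes of this pair are uncertain. Without untreated replicate 3, 123 genes fell and 1 rose (median -0.44), and with library size alone 76 fell and 4 rose. Without untreated replicate 1, untreated replicate 2, treated replicate 1 or treated replicate 2 the genes that fell numbered 46, 52, 50 and 33. Of 19 translation factor genes 5 fell, with *TIF11*, encoding eIF1A, at -0.50 and *TEF2*, of a near-identical pair for eEF1A, at -0.31, and none rose. Without untreated replicate 3 the number that fell was 12, without untreated replicate 1 or 2 or treated replicate 1 or 2 it was 1, and with library size alone 2 fell and 1 rose. The *TEF2* call was lost under 5 alternatives. Mitochondrial ribosomal protein genes had 1 call in each direction among 56, and 0 to 2 in each without one library.

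**Figure D3:**
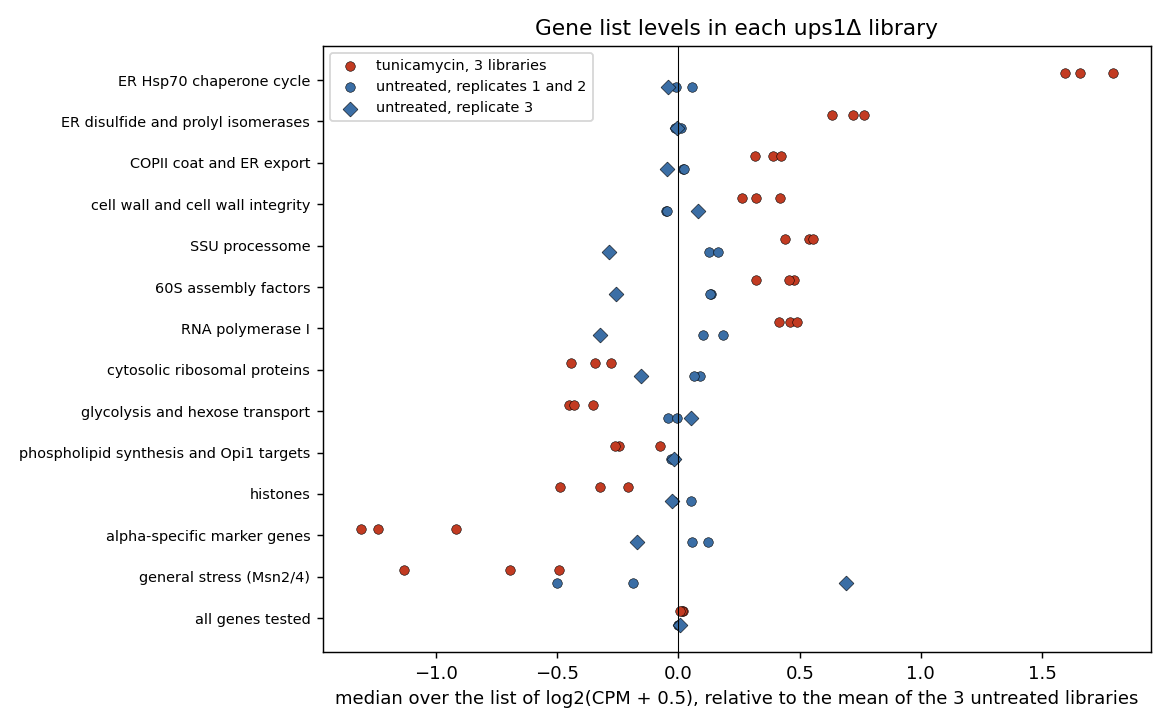
The x axis is the median over the genes of a list of log2(CPM + 0.5) in each *ups1*Δ library, relative to the mean of the 3 untreated libraries; red points are treated libraries, blue circles untreated replicates 1 and 2, and the blue diamond untreated replicate 3. Untreated replicate 3 lies lowest for the ribosome assembly lists (-0.29 for the SSU processome) and highest for general stress (0.69), while the 2 ER folding lists and COPII lie within 0.06 of 0 in all untreated libraries.

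The general stress list depended most on that library. These genes protect cells against heat, oxidation and starvation. Of 29 genes 8 fell and 2 rose, with a median of -0.96. Relative to the untreated mean, the list stood at -0.69, -0.49 and -1.13 in the treated libraries, against -0.19, -0.50 and 0.69 in the untreated ones. The treated libraries overlapped with untreated replicate 2 in this median, and untreated replicate 3 stood far above the rest. Without untreated replicate 3 the median was -0.32, with 12 genes lower and 2 higher. Without any one of the treated libraries 3 genes fell, without untreated replicate 1 there were 5 and without untreated replicate 2 there were 13, with medians from -1.15 to -0.88.

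Single genes of the list moved in both directions. *SDP1*, a protein phosphatase of the cell wall integrity kinase, had 8.12, 6.56 and 6.57 CPM in treated libraries, against 25.5, 22.6 and 49.9 CPM in untreated libraries (log2 -2.21 ± 0.34 (SE), adjusted p 0.0035). *TSL1*, a subunit of trehalose synthase, had 162, 199.6 and 254 CPM in treated libraries, against 513, 416 and 1029 CPM in untreated libraries (log2 -1.67 ± 0.41 (SE), adjusted p 0.04). Both are among the 15 largest decreases, a set that required separate groups. Untreated replicate 3 was the highest library for both, and the *TSL1* call was lost under 5 alternatives. *YGP1*, a secreted glycoprotein, had 845, 754 and 758 CPM in treated libraries, against 1839.8, 1808 and 2201 CPM in untreated libraries (log2 -1.31 ± 0.10 (SE), adjusted p 3.5e-05), so that its decrease was seen against every untreated library. *TPS2*, the trehalose phosphatase, fell by 1.31, *SOL4*, a phosphogluconolactonase, by 1.81, and *SPI1*, a wall protein, by 1.60. The *TPS2* and *SOL4* calls were lost without any one of the treated libraries. Against this, *HSP12*, a small membrane-associated heat shock protein, had 416, 546 and 443 CPM in treated libraries, against 118, 131 and 124 CPM in untreated libraries (log2 1.91 ± 0.11 (SE), adjusted p 9.5e-06). *HSP26*, a small chaperone, had 307, 286 and 133 CPM in treated libraries, against 88.8, 73.5 and 75.9 CPM in untreated libraries (log2 1.61 ± 0.35 (SE), adjusted p 0.025), with treated replicate 3 below the other treated libraries and the call lost under 5 of the alternatives.

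Of 22 heat shock and co-chaperone genes 8 fell and 3 rose, and without one library 5 to 9 fell and 2 or 3 rose. *HSP30*, a plasma membrane regulator of the proton pump, showed the largest decrease of all genes with at least 10 CPM and separate groups, with 96.2, 80.7 and 115 CPM in treated libraries, against 745, 477 and 973 CPM in untreated libraries (log2 -2.91 ± 0.30 (SE), adjusted p 0.0019). *HSP104*, the disaggregase, had 424, 465 and 397 CPM in treated libraries, against 886, 751 and 1295 CPM in untreated libraries (log2 -1.19 ± 0.20 (SE), adjusted p 0.0058). *SIS1*, an essential J protein, fell by 0.61 and *HSP82*, the inducible Hsp90, by 0.50, while *SSA3*, a stress-inducible Hsp70, rose by 0.58. For *HSP30* and *HSP104* the lowest untreated library was still well above the highest treated one.

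Glycolytic genes were lower with tunicamycin. Of 28 genes for glycolysis, fermentation and hexose transport 14 fell and 3 rose (median -0.45). *FBA1*, the aldolase, had 10369, 9397 and 9619 CPM in treated libraries, against 15828, 15961 and 15313 CPM in untreated libraries (log2 -0.68 ± 0.07 (SE), adjusted p 0.00017). *ADH1*, the main alcohol dehydrogenase, had 8899.5, 7679 and 8488 CPM in treated libraries, against 12922, 13316 and 13845 CPM in untreated libraries (log2 -0.68 ± 0.07 (SE), adjusted p 0.00035). The groups were separate for both, and untreated replicate 3 was near its replicates. *TDH2*, a glyceraldehyde phosphate dehydrogenase whose reads can be shared with its paralogs, fell by 0.74. *HXT1*, a low-affinity glucose transporter, rose by 0.43 (call lost without treated replicate 2), *PDC6*, a minor pyruvate decarboxylase, by 1.38, and *HXT5*, a transporter of slow-growing cells, had 60.9, 60.1 and 35.8 CPM in treated libraries, against 12.5, 10.8 and 28.3 CPM in untreated libraries. Untreated replicate 3 was the highest untreated library in *HXT5*, and the call (adjusted p 0.036) was lost under 6 alternatives. In the TCA and glyoxylate cycles 6 of 20 genes fell, among them *IDH2* (-0.99) and *IDH1* (-0.80), the subunits of isocitrate dehydrogenase, and *ACO1* (-0.76), aconitase. *LSC2*, a subunit of succinyl-CoA ligase, was the one that rose, with 307, 337 and 295 CPM in treated libraries, against 128, 144 and 155 CPM in untreated libraries (log2 1.14 ± 0.09 (SE), adjusted p 5.2e-05).

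Phospholipid genes that passed the test were lower, with one exception. Of 25 genes for phospholipid synthesis, which include targets of the repressor Opi1, 11 fell and 1 rose (median -0.20). *CHO1*, phosphatidylserine synthase, had 272, 229.9 and 203 CPM in treated libraries, against 438, 419.8 and 491 CPM in untreated libraries (log2 -0.94 ± 0.11 (SE), adjusted p 0.00064). *PSD1*, the mitochondrial phosphatidylserine decarboxylase, had 82.9, 77.2 and 85 CPM in treated libraries, against 149.7, 145 and 161 CPM in untreated libraries (log2 -0.90 ± 0.07 (SE), adjusted p 6.5e-05). *CHO2*, the first methyltransferase of phosphatidylcholine synthesis, had 197, 181 and 169.9 CPM in treated libraries, against 298, 293 and 290.2 CPM in untreated libraries (log2 -0.69 ± 0.07 (SE), adjusted p 0.00031). Every treated library was below every untreated one in these genes, and untreated replicate 3 was close to its replicates. *OPI3*, the methyltransferase of the later steps, fell by 0.30, a smaller change whose call was lost under 4 alternatives, and *ITR1*, an inositol transporter, fell by 0.79. *INO1* (chromosome X, 134332 to 135933), inositol phosphate synthase and the best-known Opi1 target, was the exception with 56.8, 69.7 and 68.9 CPM in treated libraries, against 22.6, 17.9 and 20.9 CPM in untreated libraries (log2 1.67 ± 0.13 (SE), adjusted p 4.1e-05).

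Genes of the cardiolipin pathway and the Ups family changed singly. *CLD1*, a cardiolipin deacylase, had 29.2, 33.6 and 25.3 CPM in treated libraries, against 10.1, 12 and 11.6 CPM in untreated libraries (log2 1.39 ± 0.15 (SE), adjusted p 0.00038). *CRD1*, cardiolipin synthase, was at 30.5, 28.4 and 25.3 CPM in treated libraries, against 29.5, 25.1 and 30.9 CPM in untreated libraries and was not called (log2 -0.02 ± 0.12 (SE), adjusted p 0.92). *UPS2*, the transfer protein for phosphatidylserine, fell by 0.61 and had 48.1, 51.1 and 62.9 CPM in treated libraries, against 83.3, 82.7 and 80.7 CPM in untreated libraries. *UPS3*, a close relative, fell by 0.95 (call lost without treated replicate 2), and *MDM35*, the partner that both Ups1 and Ups2 need, by 0.38, although the *MDM35* call was lost under 5 alternatives. Of the 9 listed genes 3 fell, and 1 without treated replicate 2. Among 23 ergosterol genes 4 rose and 5 fell (17.4% and 21.7%, against 15.2% and 11.9% of all genes). The number that fell was 11 without untreated replicate 3, 1 without treated replicate 1 or 2, 2 without untreated replicate 1 or 2 and 1 with library size alone. *ERG27*, the keto reductase, rose by 0.57 and *ERG28*, its scaffold partner, fell by 0.92.

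**Figure D4:**
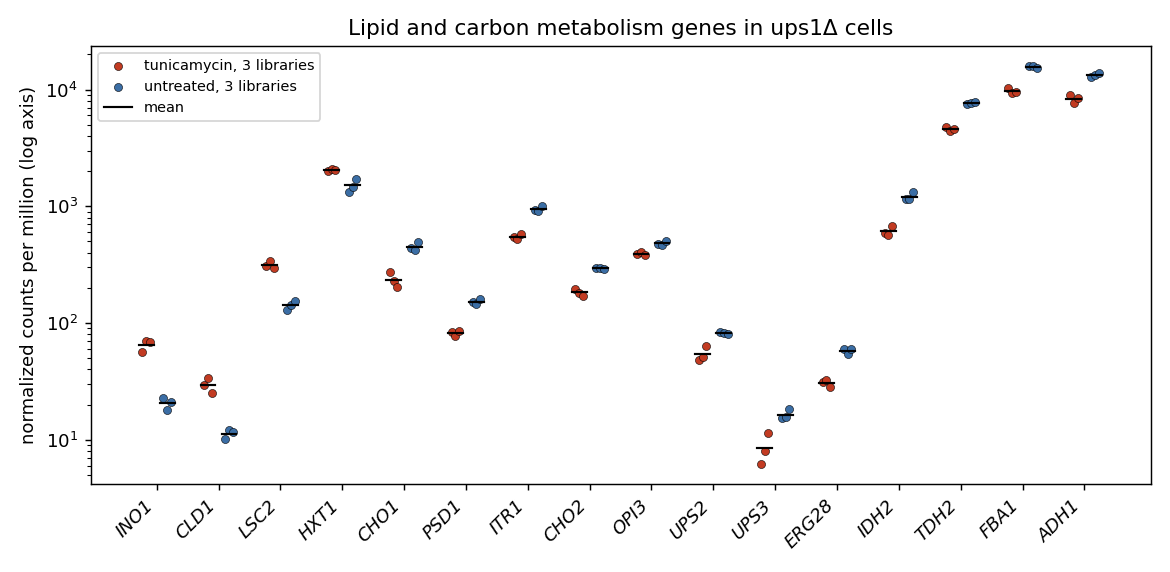
Normalized read counts in CPM (log axis) of 16 lipid and carbon metabolism genes in each *ups1*Δ library; red points are the 3 treated and blue points the 3 untreated libraries, and black bars are group means. INO1, CLD1, LSC2 and HXT1 are higher with tunicamycin and the other 12 genes are lower, with separate groups for each.

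Drug resistance, nutrient and iron genes gave mixed results. *PDR5*, the main drug efflux pump, was at 8402, 7896 and 8514 CPM in treated libraries, against 8818, 8575 and 9166 CPM in untreated libraries and was not called (log2 -0.10 ± 0.07 (SE), adjusted p 0.29), nor was its regulator *PDR3* (0.01, adjusted p 0.94). *PDR15*, a paralog of *PDR5*, had 611, 570.3 and 612 CPM in treated libraries, against 1037, 991 and 1648 CPM in untreated libraries (log2 -1.04 ± 0.19 (SE), adjusted p 0.0095), with untreated replicate 3 the highest library. *RTA1*, a membrane protein gene of lipid-translocating type, had 7.15, 15 and 14.5 CPM in treated libraries, against 1.98, 1.04 and 1.27 CPM in untreated libraries (log2 3.10 ± 0.40 (SE), adjusted p 0.0008), and *ICT1*, a lysophosphatidic acid acyltransferase, rose by 1.02. Over the 16 genes listed for pleiotropic drug resistance 3 rose and 5 fell (18.75% and 31.25%, against 15.2% and 11.9% of all genes). Without one library 2 to 4 rose and 2 (without untreated replicate 1 or treated replicate 2) to 8 (without untreated replicate 3) fell. In the iron regulon 5 of 20 rose and 1 fell (25.0% and 5.0%, against 15.2% and 11.9% of all genes), led by *HMX1*, heme oxygenase, at 1.13, and *TIS11*, an mRNA decay factor, at 0.60. Among 18 core autophagy genes *ATG17* (1.35) and *ATG5* (0.93) were the highest of 4 that rose, and *ATG7*, the E1-like enzyme, was 1 of 2 that fell (-0.49). The autophagy shares of 22.2% and 11.1% are near the 15.2% and 11.9% of all genes, and 2 genes rose without any one library other than untreated replicate 3.

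The balance of calls among amino acid genes depended on the scaling. *GCN4*, the transcription factor of amino acid starvation, was at 1125, 1091 and 1121 CPM in treated libraries, against 1004, 1046 and 943 CPM in untreated libraries and was not called (log2 0.16 ± 0.07 (SE), adjusted p 0.13). Of 41 biosynthetic genes 9 fell and 3 rose, whereas with library size alone 6 fell and 8 rose. The number that fell was 17 without untreated replicate 3, 13 without treated replicate 3 and 5 without treated replicate 1 or 2, and 0 to 3 rose over the single omissions. *LEU1*, of leucine synthesis, fell by 0.81, *BAT1*, a branched-chain aminotransferase, by 0.71 and *HIS4*, of histidine synthesis, by 0.71, while *ARG3*, of arginine synthesis, rose by 0.79, a call lost under 5 alternatives. The sulfate and methionine list had calls in both directions. *MET14*, adenylyl sulfate kinase, had 63.6, 65.9 and 68.9 CPM in treated libraries, against 30.6, 30.7 and 29 CPM in untreated libraries (log2 1.13 ± 0.09 (SE), adjusted p 4.8e-05), and the sulfate permease gene *SUL2* and the sulfide-fixing enzyme gene *MET17* rose by 0.88 and 0.75. *MET6*, methionine synthase, had 461, 414 and 410.3 CPM in treated libraries, against 909, 905 and 755 CPM in untreated libraries (log2 -0.999 ± 0.09 (SE), adjusted p 0.00015), and *SAM2*, an S-adenosylmethionine synthetase, fell by 0.89. In all 6 of 21 rose and 5 fell.

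*SCH9*, a kinase substrate of TORC1 that promotes ribosome synthesis, had 167, 176 and 158 CPM in treated libraries, against 120.5, 133 and 144 CPM in untreated libraries (log2 0.33 ± 0.08 (SE), adjusted p 0.018), with separate groups and a call lost under 3 of the single-library omissions. *NPR2* and *NPR3*, of the complex that restrains TORC1, had log2 fold changes of 0.10 and 0.13 and were not called (adjusted p 0.45 and 0.34).

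Of 10 histone genes 7 fell and none rose, and 4 fell without untreated replicate 1, treated replicate 2 or treated replicate 3 and with library size alone, with *HTA2*, a histone H2A, at -0.70 and *HHF1*, a histone H4, at -0.59. The G1 cyclin genes *CLN2* and *CLN1* rose by 0.81 and 0.48, and the 6 other cyclins tested were not called. All 4 alpha-specific genes fell. *SAG1*, the alpha agglutinin, had 421, 312 and 293 CPM in treated libraries, against 1002, 1120.1 and 916 CPM in untreated libraries (log2 -1.56 ± 0.14 (SE), adjusted p 0.0002). *MF(ALPHA)2*, a gene for the alpha pheromone precursor, had 134, 102 and 89.9 CPM in treated libraries, against 346, 368 and 255 CPM in untreated libraries (log2 -1.57 ± 0.19 (SE), adjusted p 0.0017). *MF(ALPHA)1*, its main paralog, fell by 0.76 and *STE3*, the receptor for a-factor, by 0.37. Summed counts of the alpha-specific genes were 8315 to 12621 in treated and 14597 to 18294 in untreated *ups1*Δ libraries, whereas the 7 a-specific genes summed to 224 to 330 and 201 to 228 counts, so both groups carry the alpha pattern. In a bulk library, a lower level per cell and fewer cells that express a gene cannot be told apart. *COX5B*, the hypoxic cytochrome oxidase subunit, fell by 1.06. Of 33 respiratory chain genes 2 fell, *COX5B* among them, and 2 rose (6.06% each, against 11.9% and 15.2% of all genes). Without one library 1 to 4 fell and 0 to 3 rose. *PHO12*, an acid phosphatase with near-identical copies, fell by 0.75. Of the 16 phosphate genes 1 rose and 2 fell (6.25% and 12.5%, against 15.2% and 11.9% of all genes), and without one library 1 or 2 rose and 1 to 4 fell.

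The 15 largest increases among genes with at least 10 CPM in one group and separate groups were in part of other kinds. *YOR343W-A*, of a Ty retrotransposon, had 26.9, 19.7 and 23.1 CPM in treated libraries, against 0, 1.87 and 0 CPM in untreated libraries, the largest fold change of this set (log2 5.13, adjusted p 0.0015). *YBL100W-B*, also of a Ty element, had 193, 219.8 and 246 CPM in treated libraries, against 45.7, 51.1 and 47.3 CPM in untreated libraries (log2 2.19), and *YDR210W-B* rose by 2.19 with a call lost under 5 alternatives. Ty copies are near-identical and share reads, so which copy changed is uncertain. *YET2*, related to the mammalian ER protein BAP31, rose by 2.19, *MNC1* by 2.45, and *BNA2*, of NAD synthesis from tryptophan, by 2.29. *THI12*, 1 of a family of near-identical thiamine precursor genes, rose by 2.49, with at most 3.59 CPM in any untreated library. The others of the 15 (*ULI1*, *RTA1*, *YPS3*, *KAR2*, *MCD4*, *NCW2*, *ERO1* and *SIL1*) are described above.

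The 15 largest decreases by the same rule were led by *HSP30*, *SDP1* and *FMP48*. *FMP48*, a mitochondrial protein kinase, had 23.4, 18.7 and 9.75 CPM in treated libraries, against 43.3, 51.5 and 111 CPM in untreated libraries (log2 -1.98 ± 0.50 (SE), adjusted p 0.04), with a call lost under 6 alternatives. *YHB1*, flavohemoglobin, had 112, 86.1 and 75.4 CPM in treated libraries, against 302, 332 and 281 CPM in untreated libraries (log2 -1.75 ± 0.14 (SE), adjusted p 9.8e-05). *IMD2*, of GTP synthesis, had 22.4, 17.4 and 21.5 CPM in treated libraries, against 63.3, 69.8 and 55.4 CPM in untreated libraries (log2 -1.63 ± 0.13 (SE), adjusted p 6e-05). *YHB1* and *IMD2* had no high library among the untreated ones, and separate groups were required by the rule. The wall mannoprotein genes *TIR1* and *TIP1* fell by 1.57 and 1.47, *YRO2*, a membrane protein related to Hsp30, by 1.57, *NCE102*, of eisosomes, by 1.48 and *PIC2*, a mitochondrial carrier, by 1.50. The rest of the 15 were *SOL4*, *TSL1*, *SPI1*, *MF(ALPHA)2* and *SAG1*.

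The response of *ups1*Δ cells was set against that of wild-type cells by the interaction of genotype and tunicamycin over all 12 libraries, which asks whether the log2 fold change in *ups1*Δ cells minus that in wild-type cells differs from 0. The genotypes differ in more than *UPS1*. The wild-type libraries had 0 counts of *LYS2* and *MET17*, whereas the lowest *ups1*Δ values were 1250 and 1168 counts, and their summed a-specific counts (8434 to 23210) exceeded their alpha-specific counts (261 to 749). The loss of *UPS1*, the mating type and the markers therefore cannot be told apart in any interaction. Among the wild-type libraries, treated replicate 2 stood apart from treated replicates 1 and 3 (chi-square per degree of freedom 29.1 and 31.2, against 10.3 between those), and without it 4022 interactions were called. The interaction was called for 3849 of 5828 genes (66.0%), 1917 positive (32.9%) and 1932 negative (33.2%). In wild-type cells 2278 of 5785 genes (39.4%) were higher and 2139 (37.0%) lower in treated than in untreated libraries. Of the 1546 genes called in *ups1*Δ cells, 1106 (71.5%) also had a called interaction. Of the genes that rose in *ups1*Δ cells 464 rose and 241 fell in wild-type cells, and of those that fell 415 fell and 134 rose in wild-type cells. The interaction also carried a scale effect: with library size alone its median over all genes was -0.42, against -0.03, and 70.6% of its calls were negative, against 50.2%.

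Ribosome genes differed between the genotypes as whole groups. All 45 SSU processome genes, all 41 60S assembly genes and all 11 RNA polymerase I genes had a called positive interaction, with medians of 1.86, 2.09 and 1.90. The median changes were 0.48, 0.41 and 0.42 in *ups1*Δ cells, against -1.41, -1.63 and -1.47 in wild-type cells. *NOG1* changed by 0.90 in *ups1*Δ and by -1.34 in wild-type cells (interaction 2.21 ± 0.19 (SE), adjusted p 2.6e-07). For *UTP10*, *PWP2*, *DBP7* and *RPA190* the interactions were 1.82, 2.10, 1.75 and 2.09. Of 137 cytosolic ribosomal protein genes 136 had a positive interaction (median 2.44), with median changes of -0.36 in *ups1*Δ cells and -2.83 in wild-type cells. *RPS31*, *RPL30* and *RPL9A* had interactions of 2.59, 2.49 and 3.36. With library size alone 45, 40 and 9 genes of the 3 assembly lists and 136 ribosomal protein genes had a called positive interaction.

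General stress and cell wall genes differed in the other direction. Of 29 general stress genes 27 had a negative interaction and none a positive one (median -2.81): the median change was -0.96 in *ups1*Δ cells and 1.55 in wild-type cells. *TSL1* changed by -1.67 in *ups1*Δ cells and by 1.11 in wild-type cells (interaction -2.81 ± 0.47 (SE), adjusted p 0.00039). Interactions were -3.09 for *SDP1*, -3.01 for *SPI1* and -2.42 for *HSP104*. *HSP12* rose in both, by 1.91 and 3.12 (interaction -1.24). *GSC2* rose by 1.97 in *ups1*Δ cells and by 4.35 in wild-type cells (interaction -2.42 ± 0.20 (SE), adjusted p 1.7e-07), and *YPS3* and *CRH1* likewise had smaller increases in *ups1*Δ cells (interactions -1.48 and -1.08). Over the cell wall list 19 of 28 interactions were negative and 4 positive. Untreated *ups1*Δ replicate 3 enters these values, and without it 3722 interactions were called. Without it the median change of the general stress list in *ups1*Δ cells was -0.32, against -0.96.

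**Figure D5:**
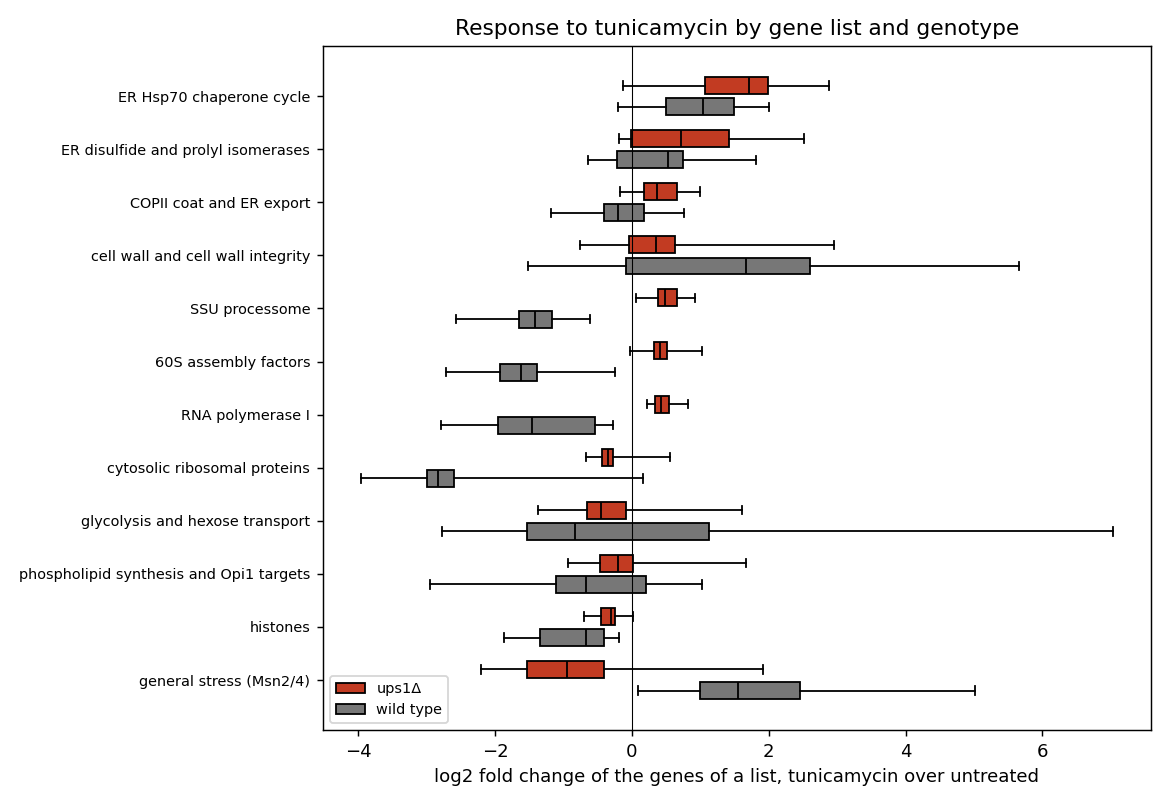
For each gene list, boxes show the median and quartiles and whiskers the full range of log2 fold changes, tunicamycin over untreated, of its genes in *ups1*Δ (red, above) and wild-type (grey, below) cells. The ribosome assembly lists lie mostly above 0 in *ups1*Δ and below 0 in wild-type cells (SSU processome medians 0.48 and -1.41). General stress has medians of -0.96 and 1.55, and its *ups1*Δ median is -0.32 without untreated replicate 3.

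*KAR2*, *LHS1*, *SIL1*, *ERO1* and *PDI1* rose in both genotypes, and whether the increase was larger in *ups1*Δ cells depended on the scaling. *KAR2* rose by 2.87 in *ups1*Δ cells and by 2.003 in wild-type cells (interaction 0.84 ± 0.25 (SE), adjusted p 0.0096). With library size alone the interaction of *KAR2* was 0.46 with an adjusted p of 0.12. *ERO1* (0.67), *LHS1* (0.69), *PDI1* (0.68) and *SIL1* (0.54) passed the test with TMM factors and, like *KAR2*, did not pass it with library size alone. *HAC1* and *ULI1* did not pass it with TMM factors (-0.27 and 0.29, adjusted p 0.093 and 0.85), and *HAC1* passed it with library size alone, at -0.66. Of the 7 genes of the ER Hsp70 cycle 5 had a positive interaction, and with library size alone none had a positive and 1 a negative one. The interactions of *MCD4* (1.17), *PMT2* (1.13) and *SEC61* (0.84) were called under both, although *PMT2* and *SEC61* did not pass the test in wild-type cells (-0.23 and -0.17). In wild-type cells 1 of the 13 translocation genes rose and 10 fell, and 4 of the 18 COPII genes rose and 7 fell. Over all genes 39.4% rose and 37.0% fell in wild-type cells, so the share of COPII genes that fell was near that of all genes. Of the 16 degradation genes 7 had a called negative and 2 a called positive interaction, and 12 and 1 with library size alone. With TMM factors 33.2% of all genes had a called negative and 32.9% a called positive interaction.

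The largest interactions among genes called in *ups1*Δ cells were of several kinds. *INA1* changed by -0.35 in *ups1*Δ cells and by -5.06 in wild-type cells (interaction 4.68 ± 0.15 (SE), adjusted p 2.3e-10). *DBP2*, an RNA helicase, *AAH1*, adenine deaminase, and *YBL028C*, a nucleolar protein, rose in *ups1*Δ cells and fell in wild-type cells (interactions 3.84, 3.60 and 3.38). On the negative side, *HXT5* rose by 1.61 in *ups1*Δ cells and by 7.03 in wild-type cells (interaction -5.45 ± 0.76 (SE), adjusted p 0.00012). *NQM1*, a transaldolase, *RTS3* and *CLD1* also rose less in *ups1*Δ cells (-4.24, -3.89 and -3.83), and *FMP33* fell in *ups1*Δ and rose in wild-type cells (-3.65). The *ups1*Δ calls of *INA1*, *DBP2*, *YBL028C*, *HXT5*, *RTS3* and *FMP33* were each lost under at least 4 alternatives.

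Lipid and regulatory genes differed too. *INO1* rose by 1.67 in *ups1*Δ cells, against a change of 0.63 in wild-type cells that was not called (interaction 1.02, adjusted p 0.017). *PSD1* and *ITR1* fell less in *ups1*Δ cells (interactions 1.22 and 1.78), as did the glycolytic genes *ADH1* and *FBA1* (2.07 and 1.58). *CRD1* changed by -0.02 in *ups1*Δ cells and by 1.12 in wild-type cells (interaction -1.17 ± 0.17 (SE), adjusted p 3.9e-05). *SCH9* rose in *ups1*Δ cells and fell in wild-type cells (0.33 and -0.34, interaction 0.64). The interactions of *INO1* and *SCH9* were not called with library size alone. In addition, *GCN4* and *NPR2* had interactions of 0.90 and -0.69. *PDR15* (-1.40), *ATG7* (-1.34) and *SAG1* (-2.30) fell in *ups1*Δ cells and rose in wild-type cells, and for *SAG1* the wild-type level is that of cells with the a pattern of mating genes.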

How the data were processed

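RNA was measured in 12 libraries, of which the 6 *ups1*Δ libraries carry the comparison. Per the study's methods and the submitters' processing notes, the authors quantified reads with kallisto and deposited a table of estimated counts per gene, which are not normalized. These counts were rounded to whole numbers here. The library kit was stranded, and whether the quantification used strand is not given in the sources used here, so overlapping genes are uncertain. All columns used matched a labelled sample (0 unmatched). The deposited tables of the authors' own comparisons hold fold changes, p-values and normalized counts and were not used.

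Genes were kept by edgeR's filterByExpr (5700 of 7110 features), scaled with TMM factors and tested with the robust quasi-likelihood F test of edgeR 4.0.16 in R 4.3.3, with treatment as the single factor and Benjamini-Hochberg adjustment over all genes tested at 0.05. The interaction and the wild-type response were tested in the same way, the interaction over all 12 libraries. The SE given with a log2 fold change is its absolute value divided by the square root of the F statistic. The comparison was repeated with DESeq2 1.42.0, with DESeq2 size factors in the edgeR fit, with scaling by library size alone, without a filter, with a minimum of 10 counts per library, with a replicate block, without each library in turn, with all 12 libraries in one fit, at an adjusted p under 0.01, and with a change of 1 or more on the log2 scale required. Where a call is said to be lost under a number of alternatives, the stricter adjusted p and the required log2 change are not counted. The test was tried on simulated data with 200 changed genes, the same spread for every gene and no library that stood apart. That trial cannot show how the test behaves with a library such as untreated replicate 3. Gene positions, names and sequences came from RefSeq (R64), which matched 6065 features.

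Genes named were the 15 largest increases and decreases among called genes with groups that did not overlap and at least 10 CPM in 1 group, up to 5 called genes in each direction with the smallest adjusted p of each of 36 lists, 14 genes of the study's questions whatever their values, and the 5 largest interactions in each direction. *ALG7*, *CNE1*, *CPR5*, *ERJ5*, *MPD2* and *RPS9B* lie outside this rule and were chosen after their values were seen. The gene lists and the members were chosen with earlier results of these data known. Ribosomal protein genes were listed by name, and *RPP1*, a subunit of RNase P, was not counted among them. Totals of 4729074 to 7101983 counts per library limit the precision, and so does the spread between *ups1*Δ replicates (chi-square per degree of freedom 2.09 to 20.1).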

Additional observations from a re-analysis of the deposited data

Results flagged for a closer look

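The interaction of genotype and tunicamycin was called for 3849 of 5828 genes (66.0%), so a called interaction was common. For these genes the responses of *ups1*Δ and wild-type cells differed by the test of the difference itself. The wild-type libraries differ from the *ups1*Δ libraries in mating type and markers as well, and these cannot be told apart from the deletion. All values below are the log2 fold change in *ups1*Δ cells minus that in wild-type cells.

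The most negative of these values were *HXT5* at -5.45, *NQM1* at -4.24, *RTS3* at -3.89, *CLD1* at -3.83, *FMP33* at -3.65, *SDP1* at -3.09, *SPI1* at -3.01 and *TSL1* at -2.81. *HSP104* stood at -2.42 and *HSP12* at -1.24. Cell wall genes were also negative, with *GSC2* at -2.42, *YPS3* at -1.48 and *CRH1* at -1.08. The remaining negative values were -2.30 for *SAG1*, -1.40 for *PDR15*, -1.34 for *ATG7*, -1.17 for *CRD1* and -0.69 for *NPR2*.

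Ribosome genes were positive, with *UTP10* at 1.82, *PWP2* at 2.10, *DBP7* at 1.75, *NOG1* at 2.21, *RPA190* at 2.09, *RPL30* at 2.49, *RPS31* at 2.59 and *RPL9A* at 3.36. *INA1*, *DBP2*, *AAH1* and *YBL028C* had the largest positive values among genes called in *ups1*Δ cells, at 4.68, 3.84, 3.60 and 3.38. Glycolytic genes followed with *ADH1* at 2.07 and *FBA1* at 1.58, and lipid genes with *ITR1* at 1.78, *PSD1* at 1.22 and *INO1* at 1.02. ER and glycosylation genes had smaller positive values: *MCD4* 1.17, *PMT2* 1.13, *KAR2* 0.84, *SEC61* 0.84, *LHS1* 0.69, *PDI1* 0.68, *ERO1* 0.67 and *SIL1* 0.54. *GCN4* stood at 0.90 and *SCH9* at 0.64. *KAR2*, *LHS1*, *PDI1*, *ERO1*, *SIL1*, *INO1* and *SCH9* did not pass the test when libraries were scaled by their size alone.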

How the results depend on the processing

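The count of 1546 genes called in *ups1*Δ cells ranged from 728 to 1997 when one library was left out, and was 700 at an adjusted p under 0.01 and 193 when a change of 1 or more on the log2 scale was required. With a replicate block it was 1138, of which 1093 were shared with the 1546. The labels do not say whether same-numbered cultures belong together. Same-numbered treated and untreated libraries had correlations of -0.06, -0.22 and -0.23 in their deviations from the group means. These values cannot decide on a pairing, because the deviations within a group of 3 libraries depend on each other. DESeq2 called 1464 genes, 1342 of them shared. The interaction count of 3849 ranged from 3666 to 4022 without one library, was 3778 with the replicate block and 1931 when a difference of 1 or more was required. No gene called in the comparison changed direction under any alternative. Of 153 named genes called, 120 held their call under all alternatives other than the stricter thresholds on adjusted p and on log2 change, which were not counted. The uncalled genes that changed sign were *PDR3* (-0.0059 with DESeq2, -0.0065 with its size factors and -0.0239 to 0.0375 without one library, against 0.01), *PDR5* (0.0047 with library size only, against -0.10) and *CRD1* (0.0848 with library size only and -0.1073 to 0.0461 without one library, against -0.02). The uncalled interaction of *ULI1* was -0.0914 with library size only and -0.0578 to 1.3565 without one library, against 0.29, the highest value being that without wild-type tunicamycin replicate 2. The causes were not tested. Depth limits the lowest genes: 3 counts were worth up to 0.659 CPM.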
